A study of Mus musculus with 2 samples.

Results

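The interleukin-1 (IL-1) family and inflammasome genes were followed across the immune cells of the injured mouse thalamus, in 1 library of mice treated with control antibody (Ab) and 1 of mice treated with anti-CD9 Ab. The members were chosen by gene symbol: Il1a, Il1b, Il1rn, Il1r1, Il1r2, Il18, Nlrp3, Casp1, Il33 and Il1rl1. All 10 were found among the 33670 gene symbols of the count matrices. Both groups consisted of C57B6/J mice, 12 weeks old, with cortical ablation injury (CAI), in which part of the cortex is removed and the connected thalamus degenerates afterwards. Through a cannula into the thalamus they received either a monoclonal Ab to the tetraspanin CD9, or normal rat IgG as the control Ab, at 1.0 μg/μl from day 7 to day 19. The thalamus was collected on day 21, and live CD45+ cells were sorted for 3′ single-cell RNA sequencing. No uninjured mice or injured mice without Ab are part of these libraries. The methods describe pooling the cells of 4 mice for the thalamus, so each library is taken as a single pool. With 1 library per Ab, no difference between them could be tested, and the Ab, the pool of mice and the library cannot be told apart.

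IL-1α (Il1a) and IL-1β (Il1b) are inflammatory cytokines that signal through the same receptor, IL-1R1 (Il1r1). The secreted antagonist IL-1Ra (Il1rn) occupies that receptor without signaling, and the decoy receptor IL-1R2 (Il1r2) binds the cytokines without passing a signal on. IL-1β and IL-18 (Il18) are made as precursors that caspase-1 (Casp1) cleaves once an inflammasome, such as the one built on the sensor NLRP3 (Nlrp3), has assembled, so their mRNA levels say nothing of cleavage or release. IL-33 (Il33) is a nuclear alarmin of oligodendrocytes and astrocytes in the brain, and its receptor ST2 (Il1rl1) marks subsets of regulatory T cells, mast cells and type 2 innate lymphoid cells. The counts are made per gene, so that soluble and membrane-bound ST2 are not separated.

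Il1b, Il1a and Il1rn lie on chromosome 2, where Il1a and Il1b are adjacent coding genes, and Il1r2, Il1r1 and Il1rl1 lie close together on chromosome 1. The 250 bases before the RefSeq start site are shown for the cytokine genes and the antagonist gene, since these 3 members were highest in neutrophil-like cells of the anti-CD9 Ab library (build GRCm38.p6, 5′ to 3′ in the direction of the gene). For Il1b the window is chr2:129371140-129371389 on the minus strand, for Il1a chr2:129309973-129310222 on the minus strand, and for Il1rn chr2:24336610-24336859 on the plus strand, the first of its 3 listed start sites. Capitals mark matches, on either strand, to the TATA box (TATAAA), AP-1 (TGANTCA), C/EBP (TTGCNNAA) or NF-kB motif.
Il1b: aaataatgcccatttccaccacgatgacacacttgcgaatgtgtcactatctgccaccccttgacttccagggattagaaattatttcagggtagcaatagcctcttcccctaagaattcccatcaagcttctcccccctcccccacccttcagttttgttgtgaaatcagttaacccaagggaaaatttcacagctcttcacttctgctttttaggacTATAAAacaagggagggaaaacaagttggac
Il1a: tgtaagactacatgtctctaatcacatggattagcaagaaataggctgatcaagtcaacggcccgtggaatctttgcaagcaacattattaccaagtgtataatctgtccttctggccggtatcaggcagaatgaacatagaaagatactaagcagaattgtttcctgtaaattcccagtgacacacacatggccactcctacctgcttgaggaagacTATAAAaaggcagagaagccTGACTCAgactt
Il1rn: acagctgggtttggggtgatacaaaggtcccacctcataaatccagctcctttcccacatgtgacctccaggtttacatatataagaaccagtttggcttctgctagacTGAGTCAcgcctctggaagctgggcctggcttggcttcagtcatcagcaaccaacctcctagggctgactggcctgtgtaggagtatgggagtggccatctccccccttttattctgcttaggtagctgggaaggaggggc
Il1b and Il1a each held a TATAAA, with its first base at -31 and -32 from the start site, and Il1a held a TGACTCA from -12. The Il1rn window held a TGAGTCA from -141. The windows of start sites 2 and 3 of Il1rn held 0 matches, and which start site the cells used was not tested. Of all 32851 promoter windows of this length, 12.4% held a TATAAA, 6.75% an AP-1 match, 9.56% a C/EBP match and 3.90% an NF-kB match. A match is a stretch of letters and not a shown binding site.

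After the quality limits of the study, 7467 cells (24940542 unique molecular identifiers, UMIs) remained with control Ab and 9162 cells (22664880 UMIs) with anti-CD9 Ab, with median depths of 1880 and 1419, and 18 cell barcodes occurred in both libraries. Clustering, in which no member or pathway gene was used, gave 25 clusters, of which 20 were named from marker genes and are called by cell type with the ending "-like". The makeup of the libraries differed widely: the control Ab library held 66 neutrophil-like cells (0.884%) and the anti-CD9 Ab library 2813 (30.7%). In the same order there were 217 and 1215 macrophage-like, 114 and 348 dendritic cell-like, and 1988 and 900 microglia-like cells. Neutrophil-like cells with control Ab are therefore few and shallow (74849 UMIs in all). At a clustering resolution of 1.6 there was a monocyte-like cluster (30 and 698 cells) beside a macrophage-like one (172 and 533), in different proportions in the libraries. The dendritic cell-like cells came from cluster 17, led by Wdfy4, Zfp366 and Flt3 (96 and 184 cells), and cluster 19, led by Ccr7 and Fscn1 (18 and 164 cells). The unnamed clusters held 606 and 2241 cells (8.12 and 24.5%). Astrocyte-, oligodendrocyte- and neuron-like cells are not CD45+ types, so their presence marks cells or debris carried through the sort. Levels are CPM, the UMIs of a gene scaled to 1000000 UMIs of the same cells. Their 95% intervals, in parentheses, cover counting error only.

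Over the whole libraries, 5 members stood at least 2-fold higher with anti-CD9 Ab and 2 at least 2-fold lower, where 7.41% of all 15131 genes with at least 50 UMIs passed this fold upward and 21.5% downward. Il1rn went from 7.42 to 632 CPM (log2 ratio 6.41, 6.20 to 6.63), Il1b from 32.0 to 1937 CPM (5.92, 5.82 to 6.02), Il1r2 from 7.98 to 209 CPM (4.71, 4.51 to 4.92), Nlrp3 from 29.1 to 224 CPM (2.94, 2.83 to 3.06) and Il1a from 42.3 to 252 CPM (2.58, 2.48 to 2.67). Casp1 differed less, at 38.8 and 64.7 CPM (0.74, 0.62 to 0.86). Il33, at 16.5 and 1.90 CPM (-3.12, -3.61 to -2.67), and Il1rl1, at 7.70 and 3.62 CPM (-1.09, -1.48 to -0.71), were the 2 lower ones. Il1rl1 stayed under 2-fold with up to 5% mitochondrial counts (-0.46) and when scaled to the median of all genes (-0.72), and Casp1 passed it with that scaling (1.11). Il1r1 (47.6 and 38.8 CPM, -0.29) and Il18 (60.9 and 53.9 CPM, -0.18) were lower, but both turned to higher (0.08 and 0.20) when scaled to the median of all genes, which itself lay at -0.37. As means over cells, Il1r1 was at -1.23 and Il18 at 0.11.

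Since the makeup differed, the whole-library levels mix cell numbers with levels per cell type. Weighting the control Ab level of each cell type by that type's share of the anti-CD9 Ab UMIs gave 208 CPM for Il1b, 28.1 for Il1rn, 71.9 for Il1r2, 27.8 for Nlrp3 and 24.0 for Il1a. Each of these 5 values lies below the level measured with anti-CD9 Ab. For Il33 the same weighting gave 5.06 CPM, already below the 16.5 CPM of the control Ab library, and for Il1rl1 it gave 3.87 CPM, next to the 3.62 CPM measured. This weighting leaves out 3.96% of the anti-CD9 Ab UMIs, from clusters with under 10 control Ab cells, which add 0 to the weighted values. The measured levels include these unnamed clusters, 8 and 24, which held 1576 and 223 of the 14329 Il1rn UMIs. The neutrophil-like control Ab levels used rest on 2 UMIs for Il1a, 6 for Nlrp3 and 9 for Il1rn.

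**Figure D1:**
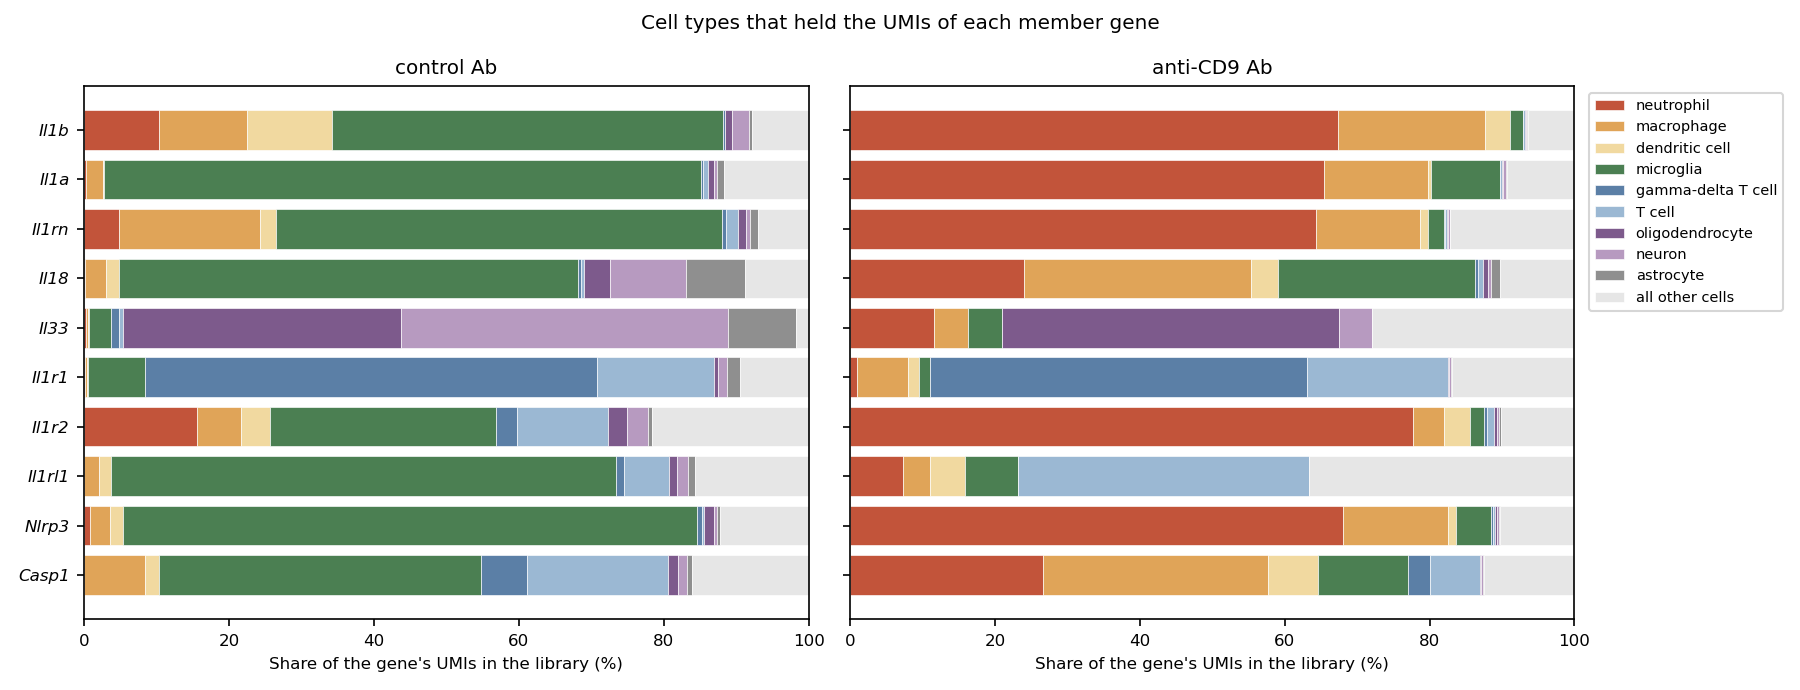
Bars give, for each library, the percentage of a gene's UMIs (x axis) that came from each cell type, named from markers. Microglia-like cells held most UMIs of 6 of the 10 members with control Ab, whereas neutrophil-like cells held 64.4 to 77.7% of those of Il1b, Il1a, Il1rn, Il1r2 and Nlrp3 with anti-CD9 Ab. Of the UMIs of all genes, microglia-like cells held 45.0% with control Ab and neutrophil-like cells 15.3% with anti-CD9 Ab.

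The cells that held these mRNAs were different in the libraries, as the bar plot of UMI shares shows. With control Ab, microglia-like cells held 82.4% (79.9 to 84.6%) of the Il1a UMIs, 79.2% of those of Nlrp3, 69.8% of Il1rl1, 63.3% of Il18, 61.6% of Il1rn and 53.9% of Il1b. With anti-CD9 Ab, microglia-like cells held 9.44, 4.86, 7.32, 27.3, 2.18 and 1.76% of the UMIs of the same genes. Neutrophil-like cells then held 77.7% of the Il1r2 UMIs, 68.0% of Nlrp3, 67.3% of Il1b, 65.4% of Il1a and 64.4% of Il1rn, and macrophage-like cells a further 14.3 to 20.3% of the last 4. Casp1 was spread more widely, with 31.1% of its UMIs in macrophage-like and 26.6% in neutrophil-like cells. Macrophage-like cells held 29.5% and neutrophil-like cells 15.3% of the UMIs of all genes with anti-CD9 Ab.

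**Figure D2:**
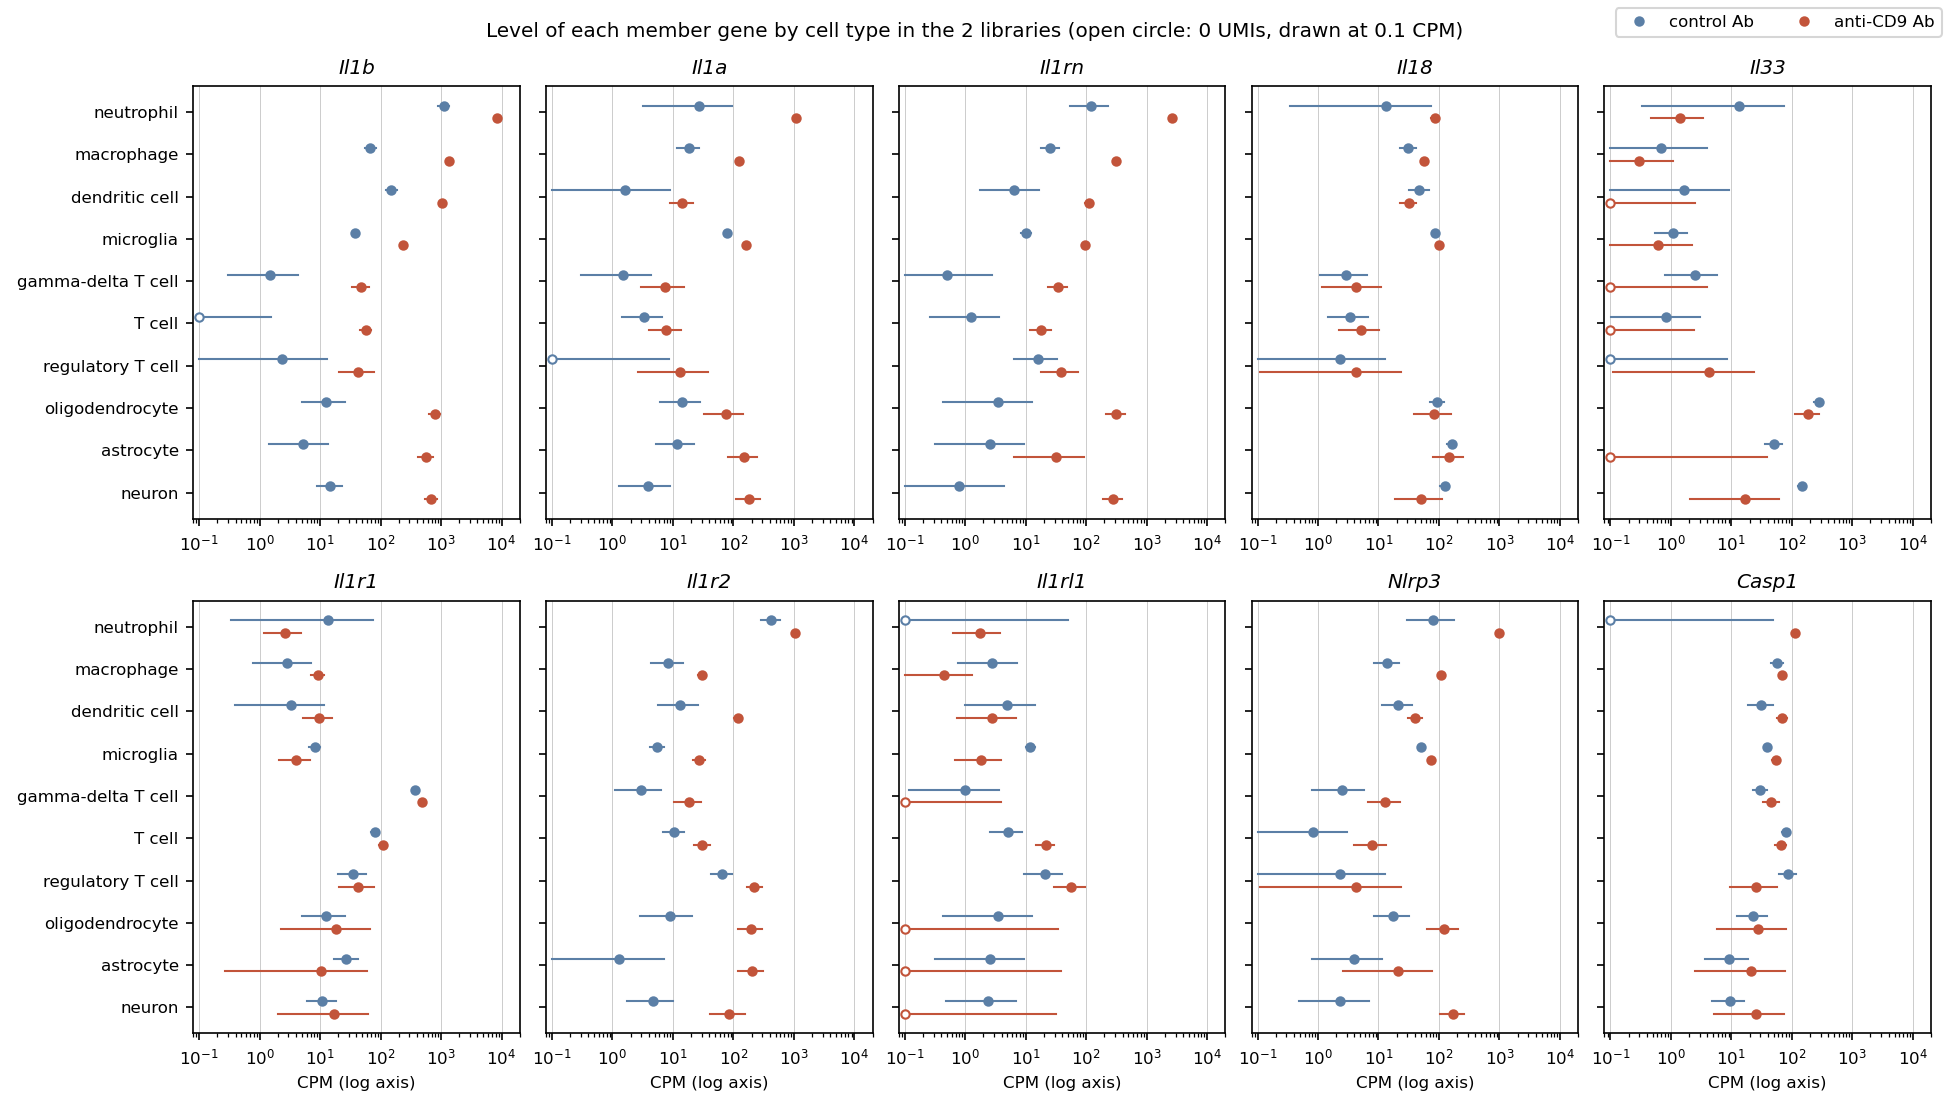
Each panel gives the level of 1 member in CPM (log x axis) in 10 marker-named cell types, for control Ab (blue) and anti-CD9 Ab (red). Lines are 95% counting intervals. Il1b, Il1rn, Il1r2 and Nlrp3 peak in neutrophil-like cells, Il1r1 in gamma-delta T cell-like cells and Il33, with control Ab, in oligodendrocyte-like cells.

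Il1b, which encodes IL-1β, was highest in neutrophil-like cells among the named types of both libraries. It measured 1109 CPM (883 to 1375) from 83 UMIs with control Ab and 8518 CPM (8421 to 8616) from 29543 UMIs with anti-CD9 Ab, which gives a log2 ratio of 2.94 (2.63 to 3.27). Macrophage-like cells went from 68.0 to 1333 CPM (4.29, 4.0 to 4.6), dendritic cell-like cells from 151 to 1041 CPM (2.79, 2.48 to 3.10) and microglia-like cells from 38.4 to 235 CPM (2.61, 2.44 to 2.78). The macrophage-like ratio may mix the monocyte-like (30 and 698) and macrophage-like (172 and 533) cells found at a resolution of 1.6. At that resolution the macrophage-like ratios of Il1rn, Il1a, Il1r2 and Il18, given below, were smaller. Within the dendritic cell-like clusters the Il1b ratio was 2.09 (1.76 to 2.43) in cluster 17 and 3.99 (2.94 to 5.31, from 7 UMIs with control Ab) in cluster 19. Among these 4 types, neutrophil-like cells were highest and microglia-like cells lowest in each library, and the pair between them changed places. After thinning every cell to 1000 UMIs, an Il1b UMI was found in 87.3% (85.7 to 88.8%) of neutrophil-like cells of the anti-CD9 Ab library, against 17.4% with control Ab, where only 23 cells were deep enough (4.95 to 38.8%; unthinned 86.4 and 40.9%). Thinned shares in macrophage-like cells were 5.58 and 35.1% (unthinned 12.9 and 56.8%).

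Il1b UMIs also appeared with anti-CD9 Ab in cell types in which the control Ab library held almost none. T cell-like cells had 0 UMIs with control Ab and 89 UMIs (57.4 CPM) with anti-CD9 Ab, at least 45.6-fold higher against a floor of 3 counts. The thinned share of T cell-like cells with an Il1b UMI was 0 of 1089 cells with control Ab, which allows up to 0.275%, and 6.37% (4.40 to 8.88%) with anti-CD9 Ab, where the median depths were 1633.5 and 2117 UMIs. The anti-CD9 Ab share in microglia-like cells, 9.24% (7.4 to 11.3%; 1.90% with control Ab), overlaps that of T cell-like cells in its interval, at median depths of 3275.5 and 3384.5 UMIs. The unthinned shares were 6.64 and 21.1% in microglia-like cells, and 0 and 12.0% in T cell-like cells. Oligodendrocyte-like cells, at 12.3 and 781 CPM, had 81.0% of their Il1b UMIs in predicted doublets with anti-CD9 Ab. The summed level of the 16 neutrophil markers moved in the same direction. In T cell-like cells it was 337 and 502 CPM. It was 224 and 6452 CPM in oligodendrocyte-like cells, 985 and 2424 CPM in macrophage-like cells, 118 and 1322 CPM in dendritic cell-like cells, and 770 and 1775 CPM in microglia-like cells, with 15, 16 and 15 of the 16 markers higher in the last 3 types. With anti-CD9 Ab 0 of the 16 markers were without UMIs in these 3 types, and with control Ab 8 were without UMIs in dendritic cell-like cells. The 12 microglia markers moved the other way, from 5636 to 1246 CPM in macrophage-like and from 1106 to 503 CPM in dendritic cell-like cells. The part of neutrophil or microglial RNA in the values of these types was not tested.

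**Figure D3:**
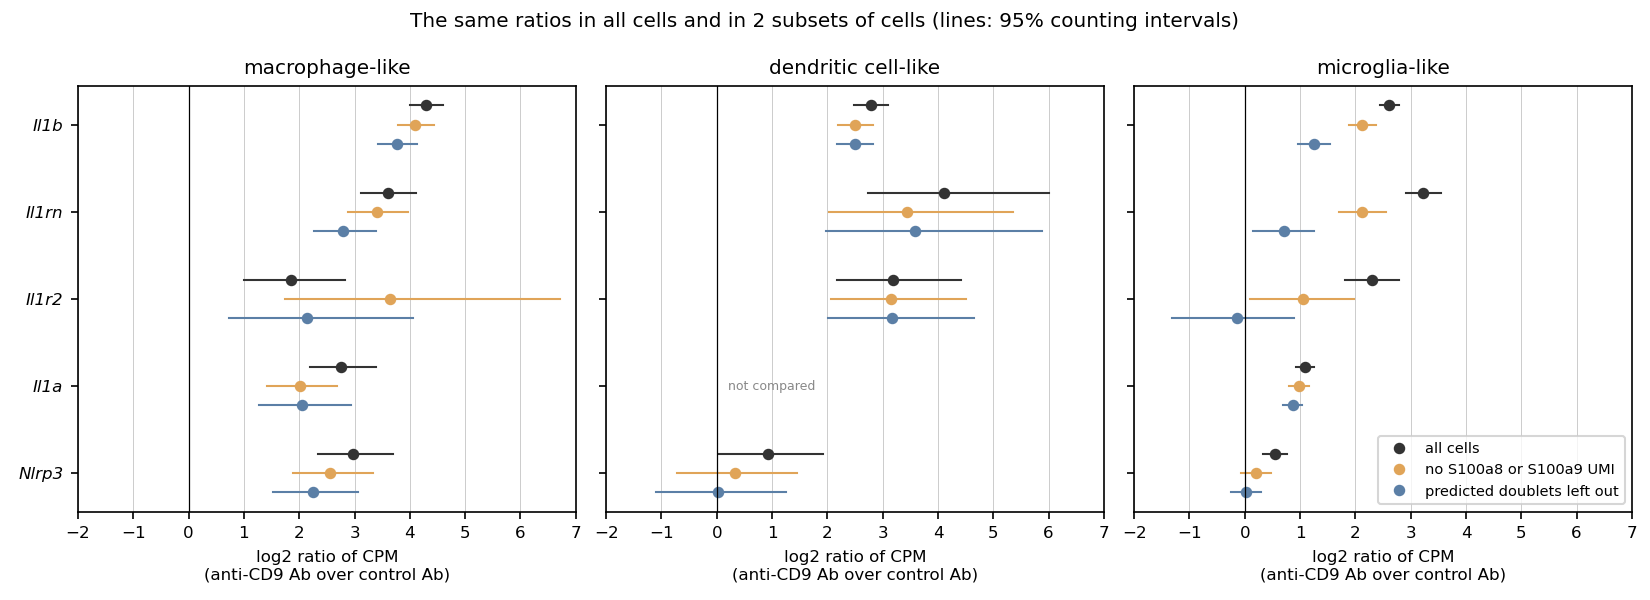
Points are log2 ratios of CPM (anti-CD9 Ab over control Ab, x axis) of 5 members in 3 cell types, in all cells (black), in cells without a UMI of the neutrophil genes S100a8 and S100a9 (orange) and without predicted doublets (blue). Lines are 95% counting intervals. Without predicted doublets the ratios of Il1b, Il1rn and Il1r2 in microglia-like cells are lower, that of Il1r2 going from 2.29 to -0.14, and in macrophage-like cells without S100a8 or S100a9 that of Il1r2 goes from 1.84 to 3.64.

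The ratios were therefore also taken in cells with no UMI of S100a8 or S100a9, abundant neutrophil genes, and without predicted doublets. Both selections are plotted beside all cells. In macrophage-like cells the ratio of Il1b was 4.10 (3.78 to 4.43; 69.0 and 1179 CPM) in the first selection and 3.76 (3.42 to 4.12; 69.2 and 939 CPM) in the second. Neither selection separates monocyte-like from macrophage-like cells. In dendritic cell-like cells it was 2.50 (2.19 to 2.83) and 2.50 (2.18 to 2.83). In microglia-like cells, where 78.7% of the anti-CD9 Ab Il1b UMIs lay in predicted doublets (46.4% with control Ab), it was 2.13 (1.89 to 2.37; 28.0 and 123 CPM) and 1.25 (0.95 to 1.55; 25.7 and 61.3 CPM). The 10% of microglia-like cells with the most Il1b held 87.0% of its UMIs with anti-CD9 Ab, and the same share of neutrophil-like cells held 41.2%.

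Il1rn, the receptor antagonist gene, had a larger ratio than Il1b in neutrophil- and dendritic cell-like cells taken whole. Its ratio was smaller in macrophage-like cells. The intervals of the 2 genes overlap in dendritic cell-like and in macrophage-like cells. By cluster, the Il1rn ratio was smaller in neutrophil-like cluster 12, described below (3.53 against 4.38, from 2 Il1rn UMIs with control Ab), and in dendritic cell-like cluster 19 (1.99 against 3.99, from 4). It was larger in neutrophil-like clusters 2 (3.88 against 2.13, from 6) and 7 (3.14 against 2.29, from 1), and cluster 17 had 0 control Ab UMIs. Of these 4 ratios, only in cluster 2 do the intervals of the genes not overlap (2.76 to 5.33 and 1.69 to 2.61). In microglia-like cells the Il1rn ratio was larger in all cells but smaller without predicted doublets (0.71 against 1.25). Il1rn was at 120.2 CPM (55.0 to 228, 9 UMIs) in neutrophil-like cells with control Ab and at 2659 CPM (2605 to 2714, 9223 UMIs) with anti-CD9 Ab, which gives a log2 ratio of 4.47 (3.54 to 5.60). Macrophage-like cells had 25.2 and 306 CPM (3.60, 3.12 to 4.12), and the ratio was 2.79 without predicted doublets and 1.37 in the macrophage-like cluster at a resolution of 1.6. Dendritic cell-like cells had 6.49 and 113 CPM (4.12, 2.73 to 6.01, from 4 UMIs with control Ab), with ratios of 3.58 without predicted doublets and 3.44 in cells without S100a8 or S100a9. Microglia-like cells had 10.2 and 95.2 CPM (3.23, 2.92 to 3.55), and the ratio without predicted doublets was 0.71 (0.14 to 1.26). With anti-CD9 Ab, predicted doublets held 52.7% of the Il1rn UMIs in macrophage-like, 50.9% in dendritic cell-like and 86.6% in microglia-like cells. The unnamed cluster 8, led by Gdf15 and Hilpda, genes induced by stress and hypoxia, had 682 cells with anti-CD9 Ab and 1 with control Ab. It held 11% of the anti-CD9 Ab Il1rn UMIs at 2302 CPM (2189 to 2418), and 70.7% (65.3 to 75.7%) of its cells had an Il1rn UMI after thinning (73.6% unthinned), against 1.39% of T cell-like cells (3.70% unthinned). The median depths were 963.5 and 2117 UMIs. The neutrophil markers summed to 14381 CPM in this cluster and to 54966 CPM in neutrophil-like cells.

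How much Il1rn stood beside Il1b differed between cell types within the anti-CD9 Ab library. Capture and length differ between genes, so that this ratio is compared between cells and not read as an amount of antagonist per cytokine. Per 100 Il1b UMIs there were 31.2 Il1rn UMIs (30.5 to 32.0) in neutrophil-like cells, 22.9 (21.8 to 24.1) in macrophage-like cells, 10.8 (9.15 to 12.7) in dendritic cell-like cells and 301 (273 to 333) in cluster 8. With control Ab the values were 10.8 (4.79 to 21.6) in neutrophil-like, 37.1 (24.6 to 54.9) in macrophage-like and 4.30 (1.15 to 11.4) in dendritic cell-like cells. The neutrophil-like intervals of the libraries do not overlap, nor, in the other direction, do those of macrophage-like cells. Dendritic cell-like cells had the fewest Il1rn UMIs per Il1b UMI of these types in each library, although their control Ab interval overlaps that of neutrophil-like cells.

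The neutrophil-like cells fell into 3 clusters, which differed in these genes. The members were left out of the genes used for clustering, but Il1rn is among the 10 leading genes of cluster 2 and Il1r2 among those of clusters 7 and 12, so these levels are descriptions. Cluster 2, led by Cxcl2, Ccl4 and Rsad2 (chemokine and interferon-induced genes), held 23 control Ab and 1591 anti-CD9 Ab cells. Cluster 7, led by Cxcr2, Mmp9 and Lrg1, genes of mature neutrophils, held 19 and 770 cells. Cluster 12, led by Retnlg and by the granule genes Camp and Ngp, held 24 and 452 cells. With anti-CD9 Ab, Il1b was highest in cluster 12, at 16372 CPM (16041 to 16707), against 8044 CPM in cluster 2 and 4044 CPM in cluster 7. Il1rn showed another order, with 3971 CPM (3887 to 4057) in cluster 2, 627 CPM (563 to 695) in cluster 12 and 558 CPM (506 to 613) in cluster 7, where the last 2 intervals overlap. There were 49.4 Il1rn UMIs per 100 Il1b UMIs in cluster 2, 13.8 in cluster 7 and 3.83 (3.43 to 4.26) in cluster 12.

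**Figure D4:**
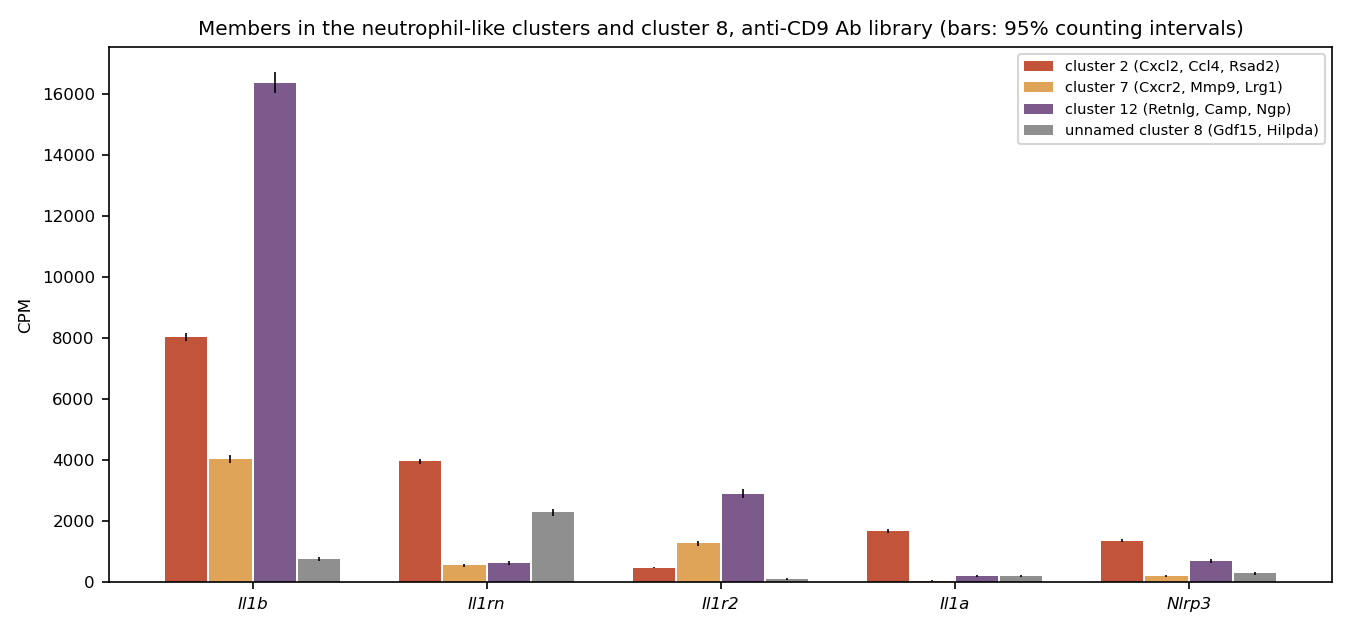
Bars give CPM (y axis) of 5 members in the 3 neutrophil-like clusters and in unnamed cluster 8 with anti-CD9 Ab, with the genes that lead each cluster in the legend, and lines give 95% counting intervals. Il1b and Il1r2 are highest in cluster 12, and Il1rn, Il1a and Nlrp3 in cluster 2.

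Within each of these clusters Il1b was higher with anti-CD9 Ab. With control Ab it was at 1840 CPM (1320 to 2496) in cluster 2, 824 CPM (439 to 1409) in cluster 7 and 788 CPM (528 to 1132) in cluster 12, from 41, 13 and 29 UMIs. The order of the clusters was thus not that of the anti-CD9 Ab library, and the control Ab interval of cluster 7 overlaps those of clusters 2 and 12. Over all neutrophil-like cells of the anti-CD9 Ab library, cells with the antagonist less often had the decoy receptor. Of the 1752 neutrophil-like cells with an Il1rn UMI, 39.3% had an Il1r2 UMI, and of the 1061 without, 59.7%. For Il1b and Nlrp3 it was the other way, with a Nlrp3 UMI in 47.7% of 2431 cells with an Il1b UMI and in 21.7% of 382 without. These shares are unthinned, and deeper cells have more of every gene. They pool the clusters, which differ in these genes, and were not taken within a cluster.

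Il1a, which encodes IL-1α, had most of its UMIs in microglia-like cells with control Ab. It was at 77.4 CPM (72.3 to 82.7, 869 UMIs) in microglia-like cells, and 2 UMIs were found in neutrophil-like cells (26.7 CPM, 3.24 to 96.5). With anti-CD9 Ab, neutrophil-like cells had 1079 CPM (1045 to 1114, 3742 UMIs), a log2 ratio of 5.34 (3.48 to 8.38). Cluster 2 held 3582 of these UMIs (1686 CPM), while clusters 12 and 7 had 212 and 50.3 CPM. Microglia-like cells had 164 CPM (151 to 179) with anti-CD9 Ab, which gives a log2 ratio of 1.09 (0.93 to 1.24), which was 0.98 in cells without S100a8 or S100a9 and 0.86 (0.68 to 1.04) without predicted doublets. It was higher in both larger microglia-like clusters, from 126 to 200 CPM in cluster 3, led by the homeostatic genes Siglech and P2ry12, and from 47.2 to 112 CPM in cluster 6, led by Lpl and Spp1. Macrophage-like cells had 18.2 and 123 CPM (2.76, 2.20 to 3.38), with 66.4% of the anti-CD9 Ab UMIs in predicted doublets, a ratio of 2.04 (1.27 to 2.93) without them and one of 0.41 in the macrophage-like cluster at a resolution of 1.6.

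Nlrp3, the inflammasome sensor, also lay mostly in microglia-like cells with control Ab and in neutrophil-like cells with anti-CD9 Ab. Microglia-like cells had 51.2 CPM (47.1 to 55.6) with control Ab and 75.2 CPM (66.1 to 85.1) with anti-CD9 Ab (0.55, 0.33 to 0.77), but the ratio was 0.20 (-0.07 to 0.47) in cells without S100a8 or S100a9 and 0.02 (-0.26 to 0.30) without predicted doublets. Neutrophil-like cells had 80.2 CPM from 6 UMIs and 996 CPM from 3453 UMIs (3.63, 2.51 to 5.08). Cluster 2 was highest, at 1363 CPM, followed by cluster 12 at 708 CPM and cluster 7 at 200.1 CPM. Macrophage-like cells had 14.0 and 110.1 CPM (2.97, 2.34 to 3.69), and 2.25 (1.53 to 3.07) without predicted doublets. With anti-CD9 Ab, 45.8% (43.6 to 48.1%) of thinned neutrophil-like cells and 1.20% of T cell-like cells had a Nlrp3 UMI (unthinned 44.2 and 2.03%).

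Casp1, the protease that matures IL-1β and IL-18, was less tied to 1 cell type. With control Ab, among types with over 50 cells, it was at 85.8 CPM (60.4 to 118) in regulatory T cell-like cells, 78.9 CPM (68.0 to 91.0) in T cell-like cells, 56.8 CPM in macrophage-like cells and 38.3 CPM in microglia-like cells, and the first 2 intervals overlap. With anti-CD9 Ab it was highest in neutrophil-like cells, at 112 CPM (102 to 124, 390 UMIs), where control Ab gave 0 UMIs. This is at least 2.81-fold higher against a floor of 3 counts. The ratio was 0.53 (0.27 to 0.79) in microglia-like cells, 1.17 (0.46 to 1.96) in dendritic cell-like cells and 0.26 (-0.08 to 0.62) in macrophage-like cells. In T cell-like cells it was -0.28 (-0.64 to 0.08). Regulatory T cell-like cells, under the minimum of 50 UMIs for a ratio, went the other way, from 37 UMIs (85.8 CPM) with control Ab to 6 UMIs (25.7 CPM) with anti-CD9 Ab.

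Il18 differed little between the libraries within microglia-like cells. It was at 85.6 CPM (80.3 to 91.2) with control Ab and 101 CPM (90.7 to 113) with anti-CD9 Ab, which gives a log2 ratio of 0.24 (0.06 to 0.42). Cluster 3 had 106 and 118 CPM and cluster 6 72.7 and 69.9 CPM. Macrophage-like cells had 30.8 and 57.1 CPM (0.89, 0.44 to 1.37), a ratio that was 0.02 at a resolution of 1.6. Neutrophil-like cells had 1 UMI with control Ab and 293 UMIs (84.5 CPM) with anti-CD9 Ab, a ratio of 2.66 whose interval runs from 0.17 to 7.97. Astrocyte-like cells had 161 CPM (134 to 192) with control Ab, the highest of the named types, and 147 CPM from 14 UMIs with anti-CD9 Ab.

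Among the receptors, Il1r2 and Il1r1 were found in different cells. Il1r2, the decoy receptor, was at 414 CPM (281 to 588, 31 UMIs) in neutrophil-like cells with control Ab and 1061 CPM (1027 to 1096) with anti-CD9 Ab. This gives a log2 ratio of 1.36 (0.85 to 1.92), the smallest of the members compared in these cells taken whole, but not in each cluster. With anti-CD9 Ab the level was 2907 CPM in cluster 12, 1275 CPM in cluster 7 and 487 CPM in cluster 2, the reverse of the order of Il1rn in clusters 2 and 12. In cluster 2 the control Ab level was 583 CPM (311 to 998) from 13 UMIs, and the intervals of the libraries overlap (ratio -0.26, -1.04 to 0.65). In cluster 12 the Il1r2 ratio was 3.93 (2.89 to 5.25, from 7 control Ab UMIs), beside 3.53 for Il1rn and 3.70 for Nlrp3 from 2 each. In cluster 7 it was 0.87 (0.03 to 1.88, from 11 control Ab UMIs). Among lymphocytes it was highest in regulatory T cell-like cells, with 65.0 CPM (43.2 to 93.9) and 223 CPM (1.78, 1.09 to 2.50). Dendritic cell-like cells had 13 and 118 CPM (3.19, 2.17 to 4.42), and this ratio was 3.16 and 3.17 in cells without S100a8 or S100a9 and without predicted doublets. Macrophage-like cells had 8.41 and 30.2 CPM (1.84, from 12 UMIs with control Ab), and this ratio was 3.64 (1.75 to 6.71, from 2 control Ab UMIs) in cells without S100a8 or S100a9 and 0.68 at a resolution of 1.6. In microglia-like cells the ratio of 2.29 (1.81 to 2.79; 5.52 and 27.1 CPM) went to -0.14 (-1.32 to 0.89) without predicted doublets, which held 88.8% of the anti-CD9 Ab UMIs.

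Il1r1, the signaling receptor, lay mostly in T cells. Gamma-delta T cell-like cells, led by Trdc and Il17a, had 365 CPM (339 to 392, 741 UMIs) with control Ab and 489 CPM (445 to 536, 457 UMIs) with anti-CD9 Ab, which gives a log2 ratio of 0.42 (0.25 to 0.59). They held 62.5% (59.7 to 65.2%) and 52% (48.6 to 55.3%) of all Il1r1 UMIs, while they were 17.6% and 3.68% of the cells. After thinning, 26.3 and 32.9% had an Il1r1 UMI (unthinned 37.8 and 56.1%), against 0.465 and 0.907% of macrophage-like cells (unthinned 1.38 and 3.29%). Among the named types with over 50 cells in each library, T cell-like cells followed with 80.1 and 110.3 CPM (0.46, 0.15 to 0.77), a direction that turned to -0.09 with cell types from single-cell marker scores and to -0.11 with up to 5% mitochondrial counts, and neutrophil-like cells had 1 and 9 UMIs. Per 100 Il1r1 UMIs there were 0.810 Il1r2 UMIs (0.296 to 1.77, from 6 Il1r2 UMIs) in gamma-delta T cell-like cells of the control Ab library. In those of the anti-CD9 Ab library there were 3.72 (2.15 to 6.02, from 17 Il1r2 UMIs). Predicted doublets held 47.1% of these 17 UMIs, and without doublets the Il1r2 counts were 6 and 9 UMIs. The 16 neutrophil markers summed to 64.1 and 388 CPM in these cells, and the part of neutrophil RNA in these values was not tested. The 7 gamma-delta T cell markers summed to 5695 and 8219 CPM in gamma-delta T cell-like cells and to 535 and 1186 CPM in T cell-like cells. How far a different mix of cells within these types enters the Il1r1 ratios was not tested.

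Il33 and its receptor gene Il1rl1 were the members with the lowest counts. Il33 was at 278 CPM (237 to 325) in oligodendrocyte-like cells with control Ab and 186 CPM (114 to 287) with anti-CD9 Ab (-0.58, -1.33 to 0.09), a difference within counting error. Neuron-like cells, in which the 8 oligodendrocyte markers summed to 3988 CPM with control Ab (8612 CPM in oligodendrocyte-like cells) and 31.1% of control Ab cells were predicted doublets, had 186 and 2 UMIs (145 and 17.0 CPM, -3.10, -6.16 to -1.23). Without thinning, an Il33 UMI was found in 87 of 302 oligodendrocyte-like, 30 of 428 astrocyte-like and 102 of 299 neuron-like cells with control Ab. With anti-CD9 Ab it was found in 13 of 92, 0 of 78 and 2 of 75. Median depths in neuron-like cells were 2613 and 957 UMIs. After thinning, the counts were 25 of 156, 14 of 283 and 36 of 263 with control Ab. With anti-CD9 Ab they were 4 of 31, 0 of 28 and 2 of 35. The 95% intervals of the thinned shares overlap between the libraries in each of these types. Il1rl1 had 134 UMIs in microglia-like cells with control Ab (11.9 CPM, 10.0 to 14.1) and 6 with anti-CD9 Ab (1.83 CPM, 0.670 to 3.97), a log2 ratio of -2.71 (-4.18 to -1.55), or 6.54-fold higher with control Ab. The ratio was -2.29 in cells without S100a8 or S100a9 and -2.82 without predicted doublets. Regulatory T cell-like cells had 9 UMIs (20.9 CPM, 9.55 to 39.6) and 13 UMIs (55.8 CPM, 29.7 to 95.4), and T cell-like cells 12 UMIs (5.03 CPM, 2.60 to 8.79) and 33 UMIs (21.3 CPM, 14.7 to 29.9). These counts were under the minimum of 50 UMIs set for a ratio.

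**Figure D5:**
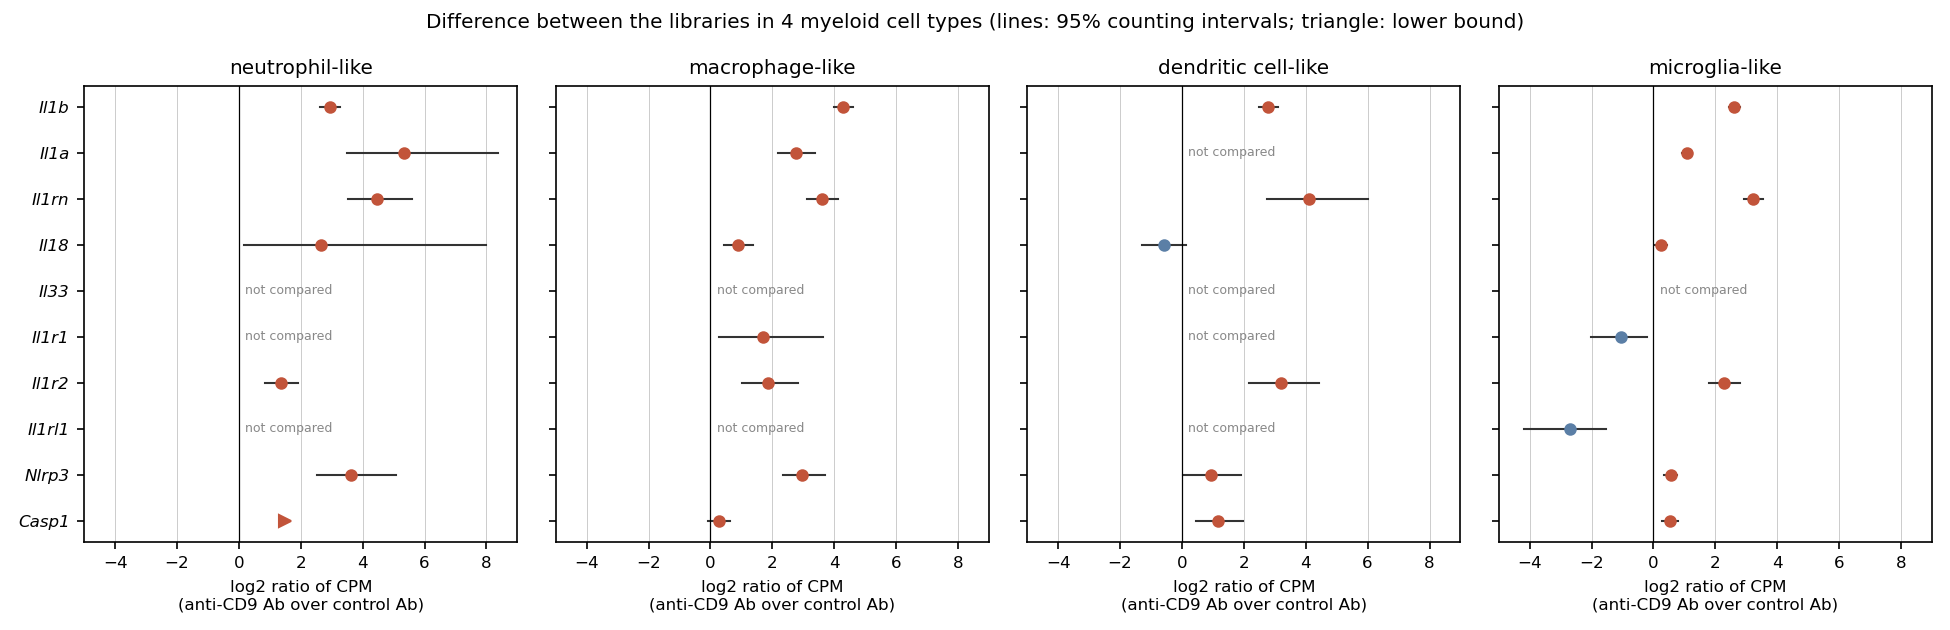
Points are log2 ratios of CPM (anti-CD9 Ab over control Ab, x axis) of the 10 members in 4 myeloid cell types, with 95% counting intervals as lines. The triangle for Casp1 in neutrophil-like cells is a lower bound, and members under 50 UMIs are marked as not compared.

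The plot of ratios by cell type shows the members side by side. In neutrophil-like cells 7 members had at least 50 UMIs, and these were at least 2-fold higher with anti-CD9 Ab, where 12.6% of 5528 genes were that much higher and 20.2% that much lower. Of these 7, all but Il1b had at most 31 UMIs with control Ab and so passed the minimum through the anti-CD9 Ab library, where they were high, and this count supports nothing about the members. The 3 members under the minimum were Il1r1 (1 and 9 UMIs), Il33 (1 and 5) and Il1rl1 (0 and 6), and with no minimum 2 members were at least 2-fold lower. In macrophage-like cells 6 of 8 were at least 2-fold higher and 0 lower (7.89% and 6.49% of 9112 genes). In dendritic cell-like cells 4 of 6 were at least 2-fold higher and 0 lower (7.56% and 3.66% of 5902 genes). Of these higher members, all but Il1b had at most 36 control Ab UMIs in macrophage-like and at most 19 in dendritic cell-like cells. They too passed the minimum through the anti-CD9 Ab library, so neither count supports anything about the members. Microglia-like cells were mixed, with 4 of 9 at least 2-fold higher and 2 lower (3.74% and 4.5% of 11328 genes). Without predicted doublets these counts in microglia-like cells were 1 higher and 1 lower, and in macrophage-like cells 3 were higher at a clustering resolution of 1.6. The medians of the members were 2.94, 2.30, 1.98 and 0.55 in the 4 types, and those of all genes compared -0.28, -0.03, -0.03 and 0.02. Like the counts, the medians in neutrophil-, macrophage- and dendritic cell-like cells support nothing about the members.

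Other genes of the pathway came from a list of 43 symbols, among them older names of listed Il36 genes, of which 38 were in the matrices. Their medians were lower than those of the members in these 4 types. Both sets were chosen with earlier results of these data known, so this is a description. In neutrophil-like cells 11 of 28 with at least 50 UMIs were at least 2-fold higher and 2 lower (median 0.56), beside 12.6% and 20.2% of all genes compared. These were led by Casp4, the caspase of the non-canonical inflammasome (93.5 and 597 CPM, 2.67, 1.63 to 3.99), Il36g, an IL-1 family cytokine (80.2 and 473 CPM, 2.56, 1.44 to 4.01), and Nfkbiz, a nuclear factor induced by IL-1 (147 and 824 CPM, 2.49, 1.65 to 3.49). Il1rap, the co-receptor that both IL-1R1 and ST2 need, was at 254 and 704 CPM (1.47, 0.83 to 2.21). In macrophage-like cells 8 of 33 were at least 2-fold higher and 1 lower (median 0.49), beside 7.89% and 6.49% of all genes compared. Among the higher ones were Irak3, an inhibitor of IL-1 receptor signaling, at 30.1 and 166 CPM (2.46, 2.02 to 2.93), Mefv, the pyrin gene, at 2.34, and Nlrc4 at 2.27. In dendritic cell-like cells 4 of 24 were at least 2-fold higher and 2 lower (median 0.41), beside 7.56% and 3.66% of all genes compared. Among the higher ones was Il18bp, which encodes the soluble inhibitor of IL-18 (4.87 and 68.2 CPM, 3.81, 2.22 to 6.11). As with the members, genes with few control Ab UMIs passed the minimum through the anti-CD9 Ab library. In neutrophil-like cells Il36g had 6 and 1640 UMIs and Il1rap 19 and 2441. The counts and medians in neutrophil-, macrophage- and dendritic cell-like cells therefore support nothing about the pathway. In microglia-like cells 4 of 31 were at least 2-fold higher and 1 lower (median 0.22), beside 3.74% and 4.5% of all genes compared. The higher ones were Il36g (9 and 57 UMIs), Irak3 (13.5 and 60.5 CPM, 2.16, 1.85 to 2.48), Il18bp (29.2 and 83.1 CPM, 1.51, 1.27 to 1.74) and Casp4. The lower one was Il18r1, an IL-18 receptor gene, at 15.1 and 2.74 CPM (-2.46, -3.61 to -1.50). Il18r1 was also among the lower genes in dendritic cell-like (-2.03, -2.71 to -1.38), macrophage-like (-1.57, -2.25 to -0.87) and neutrophil-like cells (-1.47, -2.89 to 0.45, 4 control Ab UMIs). The 12 T cell markers summed to 309 and 45.0 CPM in microglia-like cells, and the part of T cell RNA in these values was not tested. The adaptor gene Pycard, one of the most abundant, was at 356 and 410 CPM in microglia-like cells (0.20, 0.11 to 0.29).

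Each member was also compared with all genes of at least 200 UMIs by its level over 26 combinations of cell type and library, as the Pearson correlation of log2(CPM + 1). These points share libraries and marker-defined types, and the values are descriptions. The genes most like Il1b were Wfdc17 (0.95), Arg2 (0.94) and Tnfaip2 (0.94). For Il1a they were Cd14 (0.94), Ccl3 (0.92) and Tnfaip2 (0.90), and for Nlrp3 they were Il1b (0.91), Slc31a2 (0.91) and Cd14 (0.91). Il1rn was most like Cxcl2 (0.93), Clec4e (0.91) and Il1b (0.91), and Il1r2 most like Hdc (0.89), Dusp1 (0.87) and Mxd1 (0.87). For Il1r1 the first was Il17a (0.86), followed by Ncor1 (0.85) and Adam12 (0.84). Il33 was nearest to Hcn2 (0.91), Gng7 (0.91) and Ccp110 (0.91), Il18 to Arhgef11 (0.92), Stard9 (0.91) and Tcf7l2 (0.90), Casp1 to Zfand2b (0.89), Hnrnpul2 (0.87) and Tmem203 (0.86), and Il1rl1 to Izumo1r (0.80), Asb2 (0.80) and Ccl1 (0.79).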

How the data were processed

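A pair of 10x Genomics 3′ single-cell libraries of thalamic CD45+ cells were used, 1 per Ab, grouped by the treatment label. The deposited matrices hold raw UMI counts per gene and cell, made by the authors with Cell Ranger (8.0.0 in the submitters' notes, which name GRCm39; the methods give another version and GRCm38), and were used without change. Depth was 38042608 UMIs over 12245 barcodes with control Ab and 40825201 over 15173 with anti-CD9 Ab. Cells with more than 2% mitochondrial counts, under 200 or over 7500 genes were left out, as in the methods. Doublets were scored against simulated pairs of cells and marked at 0.8% per 1000 barcodes (812 and 1179 of the kept cells, 10.9 and 12.9%), and were not removed.

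Libraries were integrated by anchors (2000 variable genes without the members and pathway genes, 30 components) and clustered by the Louvain method at a resolution of 0.8 with Seurat 5.3.0 in R 4.3.3. Harmony, used by the study, was not used here. By a rule chosen after seeing the clusters, a cluster took a name when at least 50% and at least 3 of a type's markers were up (log2 difference from the remaining clusters of at least 1, pseudocount 20 CPM, a UMI in at least 10% of cells) and at most 50% of its cells were predicted doublets; among several types, the one with most markers among the 10 leading genes was taken.

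Of genes sharing a symbol, the first was kept. Counts were summed per cell type and library and scaled to CPM. Intervals at the 95% level are exact Poisson for levels, exact binomial for shares and exact conditional binomial for ratios. Ratios needed 50 cells in each library and 50 UMIs over both, and a side at 0 was set at a floor of 3 counts for bounds, counts and medians. Shares of cells with a UMI were thinned to 1000 UMIs per cell, without shallower cells. Promoter sequences are those of RefSeq (GRCm38.p6), matched by symbol for all 10 members. Python 3.11.15 with NumPy 2.4.6, SciPy 1.17.1 and pandas 2.3.3 was used, and the ratio step was tested on simulated data. All members are named, with pathway genes past 2-fold or among the 3 highest in CPM, and the 3 genes most like each member. The members, lists and marker genes were chosen with earlier results of these data known. Alternatives were a limit of 5% mitochondrial counts, no doublets, no integration, a resolution of 1.6, cell types from single-cell marker scores, scaling to the median ratio, means over cells, a minimum of 20 or of no UMIs, and thinning to 500 UMIs or none. The alternatives of cells without S100a8 or S100a9 UMIs and libraries without neutrophil-like cells, were chosen after seeing the data.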

Additional observations from a re-analysis of the deposited data

Results flagged for a closer look

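For Il1r1 and Il18, the ratios of anti-CD9 Ab over control Ab lay in opposite directions in different cell types, each with an interval on 1 side of 0. Il1r1 had a log2 ratio of 1.70 in macrophage-like cells (4 and 61 UMIs) and of -1.05 in microglia-like cells (92 and 13 UMIs). Il18 had a log2 ratio of 2.66 in neutrophil-like cells, from 1 UMI with control Ab, and of -1.29 in neuron-like cells (159 and 6 UMIs). Without predicted doublets, 0 lay inside the intervals of Il1r1 in microglia-like cells (-0.77, -1.90 to 0.22) and of Il18 in neutrophil-like cells (2.48, -0.01 to 7.79). Il1r1 in macrophage-like cells then had 0 and 35 UMIs, under the minimum for a ratio. With 1 library per Ab, these differences between cell types were not tested.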

How the results depend on the processing

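Of 353 alternative values for the 46 ratios by cell type, 345 kept their direction. Of the 8 others, 5 are given below, and 3 belong to ratios whose interval held 0 (Casp1 in CD8 T cell and NK cell-like cells, 0.14 without predicted doublets, Casp1 in macrophage-like cells, -0.0251 at a resolution of 1.6, and Il18 in oligodendrocyte-like cells, 0.10 with up to 5% mitochondrial counts). A kept direction can go with a change in size, as for Nlrp3 in microglia-like cells, at 0.55 in all cells and 0.02 without predicted doublets. The cause of such changes was not tested except where the setting itself removes cells. Scaled to the median of all genes, whole-library log2 ratios were 1.11 for Casp1, 0.20 for Il18, 2.95 for Il1a, 6.29 for Il1b, 0.0797 for Il1r1, 5.08 for Il1r2, 6.79 for Il1rn and 3.32 for Nlrp3, 1 member was at least 2-fold lower, and the median of the other pathway genes in neutrophil-like cells was 0.83. As means over cells they were 0.11 for Il18, 3.50 for Il1a, 6.67 for Il1b, -1.23 for Il1r1, 5.11 for Il1r2, 7.50 for Il1rn and 4.07 for Nlrp3. Without neutrophil-like cells they were 0.53 for Casp1, -0.34 for Il18, 1.28 for Il1a, 4.70 for Il1b, -0.0725 for Il1r1, 3.02 for Il1r2, 5.23 for Il1rn and 1.55 for Nlrp3. With up to 5% mitochondrial counts they were 0.57 for Casp1, 2.29 for Il1a, 5.64 for Il1b, 4.10 for Il1r2, -0.46 for Il1rl1, 5.77 for Il1rn and 2.58 for Nlrp3, with 1 member at least 2-fold lower in the whole library and 1 in microglia-like cells, and Il1r1 in T cell-like cells was at -0.11. With predicted doublets left out, Il1b was at 6.16 in the whole library, Il1a in plasma cell-like cells at -0.13 and Il1r2 in microglia-like cells at -0.14, and microglia-like cells had 1 member higher and 1 lower. In cells without S100a8 or S100a9 UMIs, Il1a in plasma cell-like cells was at -2.54, microglia-like cells had 2 members higher, and the other pathway genes of dendritic cell-like cells had a median of 0.10. With cell types from single-cell marker scores, Il1r1 in T cell-like cells was at -0.0894 and the other pathway genes of neutrophil-like cells had a median of 0.13. At a resolution of 1.6, macrophage-like cells had 3 members higher and microglia-like cells 1 lower. Without integration, microglia-like cells had 1 member lower, and the other pathway genes had medians of 0.70 in macrophage-like and 0.20 in dendritic cell-like cells. With no minimum of UMIs, 2 members were at least 2-fold lower in neutrophil-like and 2 in macrophage-like cells. No paired analysis was possible because each Ab had 1 library. The 66 neutrophil-like cells with control Ab, with 74849 UMIs, limit the ratios in this type.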
